A study of Mus musculus with 12 samples.

Results

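The genes described here are 9 that encode proteins stored or carried in quantity by neutrophils: S100a8, S100a9, Ltf, Ngp, Camp, Lcn2, Retnlg, Mmp8 and Mmp9. They were taken by name from the gene names in the scan files, as every probe that carries 1 of these names, which gave 10 probes for 9 of 36163 gene names on the array. The list was drawn up with earlier results of these arrays known, in which S100a8 and S100a9 stood out among the rises at 12 weeks, and it is treated as chosen on that difference. The 12-week differences are therefore given as sizes without p-values, and counts of calls stand beside their background with nothing read from them. The question asked is whether single arrays carry the differences. RNA was from whole brain of BALB/c mice without treatment, measured on 12 Agilent 1-colour (Cy3) arrays with 1 array per animal. The groups were interleukin-18 knockout at 6 weeks, wild type at 6 weeks, interleukin-18 knockout at 12 weeks and wild type at 12 weeks, with 3 mice each. How the Il18 gene was disrupted, the animals' sex and litter, and whether the brains were perfused are not given in the sources used here.

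Neutrophils make their granule proteins in the bone marrow, in an order that follows maturation: myeloperoxidase and serine proteases go into the primary granules, lactoferrin, cathelicidin and lipocalin-2 into the specific granules, and gelatinase into the last to form. S100A8 and S100A9 are calcium-binding proteins that pair as calprotectin and fill the cytosol rather than a granule, and their messengers persist in circulating neutrophils. Brain tissue holds few neutrophils outside vessels and meninges, and some of these genes have other sources there, such as Lcn2 in reactive astrocytes and Mmp9 in neurons. In bulk RNA, more cells of a type and more RNA per cell cannot be told apart.

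Levels below are log2 of the processed signal minus the log2 of the array's own 75th percentile of signal, so 0 is the brightness of that percentile and each unit is a doubling. A probe is called above background on an array where the scanner software marked it so. Between 65.9% and 76.2% of the spots of an array were so marked, and the 75th percentile lay between 890.1 and 1187.7 intensity units. The probe of Il18, the cytokine gene that was knocked out, averaged -0.22 ± 0.06 in 6-week knockouts and 1.63 ± 0.12 in 6-week wild type, and -0.25 ± 0.06 in 12-week knockouts and 1.69 ± 0.21 in 12-week wild type (SD, n = 3 each). All 10 genes listed as a check of brain tissue were above background on all 12 arrays. The 12 arrays lay on 2 slides. Slide 2 held the 12-week knockouts and replicate 3 of the 6-week knockouts, and slide 1 held the remaining 8 arrays, among them every wild-type array. At 12 weeks slide and genotype therefore cannot be told apart within the comparison. Arrays also lay in 2 columns of the slides. All 6-week wild-type arrays were in column 2 and every knockout array in column 1, so column and genotype coincide at 6 weeks. Of the 12-week wild type, replicate 1 was in column 2 and replicates 2 and 3 in column 1. Only these arrays set column apart from group, so column-corrected values at 6 weeks and with age in wild type depend on them.

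The probe sequences are shown for S100a8, which had the widest difference at 12 weeks, for Ltf, and for the pair of Camp probes, which read almost the same stretch. Positions are on mm9, as the files give them, and the exon or untranslated region each probe falls in was not annotated for that build here. The S100a8 probe lies on the plus strand at chr3:90473778-90473837 and the Ltf probe on the plus strand at chr9:110942873-110942932. The Camp probe that was tested lies on the minus strand at chr9:109749911-109749970, and the files place the other at chr9:109749901-109749950. The Camp probes share 50 bases, offset by 10, with 2 substitutions, A6G and T10C, counted from 1 at the start of the shared stretch with the tested probe's base given before the number. The initial 30 bases of that stretch are printed with those positions in capitals.
S100a8 probe: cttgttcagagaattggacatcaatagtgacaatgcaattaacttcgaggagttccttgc
Ltf probe: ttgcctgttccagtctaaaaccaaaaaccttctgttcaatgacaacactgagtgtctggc
Camp, tested probe: cagccAgagTagtaggcctgccttggcctg
Camp, other probe: cagccGgagCagtaggcctgccttggcctg

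The promoters of S100a8 and S100a9, neighbours on chromosome 3, are shown because these genes had the same 5 arrays at the top, as described below. RefSeq sequences of 250 bases before to 50 after the annotated start (GRCm38.p6) were held for 8 of the 9 members. Capitals mark matches to 3 short motifs: TATAAA on the given strand (the TATA box), GAGGAAG on both strands (the core that the myeloid factor PU.1 binds, CTTCCTC in reverse) and TTGCNNAA on both strands (a C/EBP site, TTNNGCAA in reverse). No match overlapped another in this pair.
S100a8 promoter (chr3:90668821-90669120, plus strand): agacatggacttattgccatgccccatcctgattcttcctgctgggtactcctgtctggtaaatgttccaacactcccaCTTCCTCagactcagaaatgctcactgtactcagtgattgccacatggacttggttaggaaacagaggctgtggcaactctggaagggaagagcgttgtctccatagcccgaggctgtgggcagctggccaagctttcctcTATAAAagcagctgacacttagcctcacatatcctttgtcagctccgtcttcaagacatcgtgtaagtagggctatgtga
S100a9 promoter (chr3:90695672-90695971, minus strand): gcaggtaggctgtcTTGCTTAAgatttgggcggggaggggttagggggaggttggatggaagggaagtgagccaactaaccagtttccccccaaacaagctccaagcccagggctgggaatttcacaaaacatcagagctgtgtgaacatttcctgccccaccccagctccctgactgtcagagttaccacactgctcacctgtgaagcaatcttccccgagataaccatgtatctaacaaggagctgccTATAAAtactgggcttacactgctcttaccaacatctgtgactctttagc
TATAAA was found in the promoters of S100a8, starting at -30 from the annotated start, and S100a9, starting at 0, or 2 of 8 members, and in 8.32% of 32851 promoters of the same length. GAGGAAG was found in 3 of 8 members (S100a8, Lcn2 and Mmp8), against 13.6% of all promoters. TTGCNNAA was found in 6 of 8 (S100a9, Lcn2, Mmp8, Ngp, Ltf and Retnlg), against 10.8%. A match describes the letters of this window and is not evidence of a bound site.

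**Figure D1:**
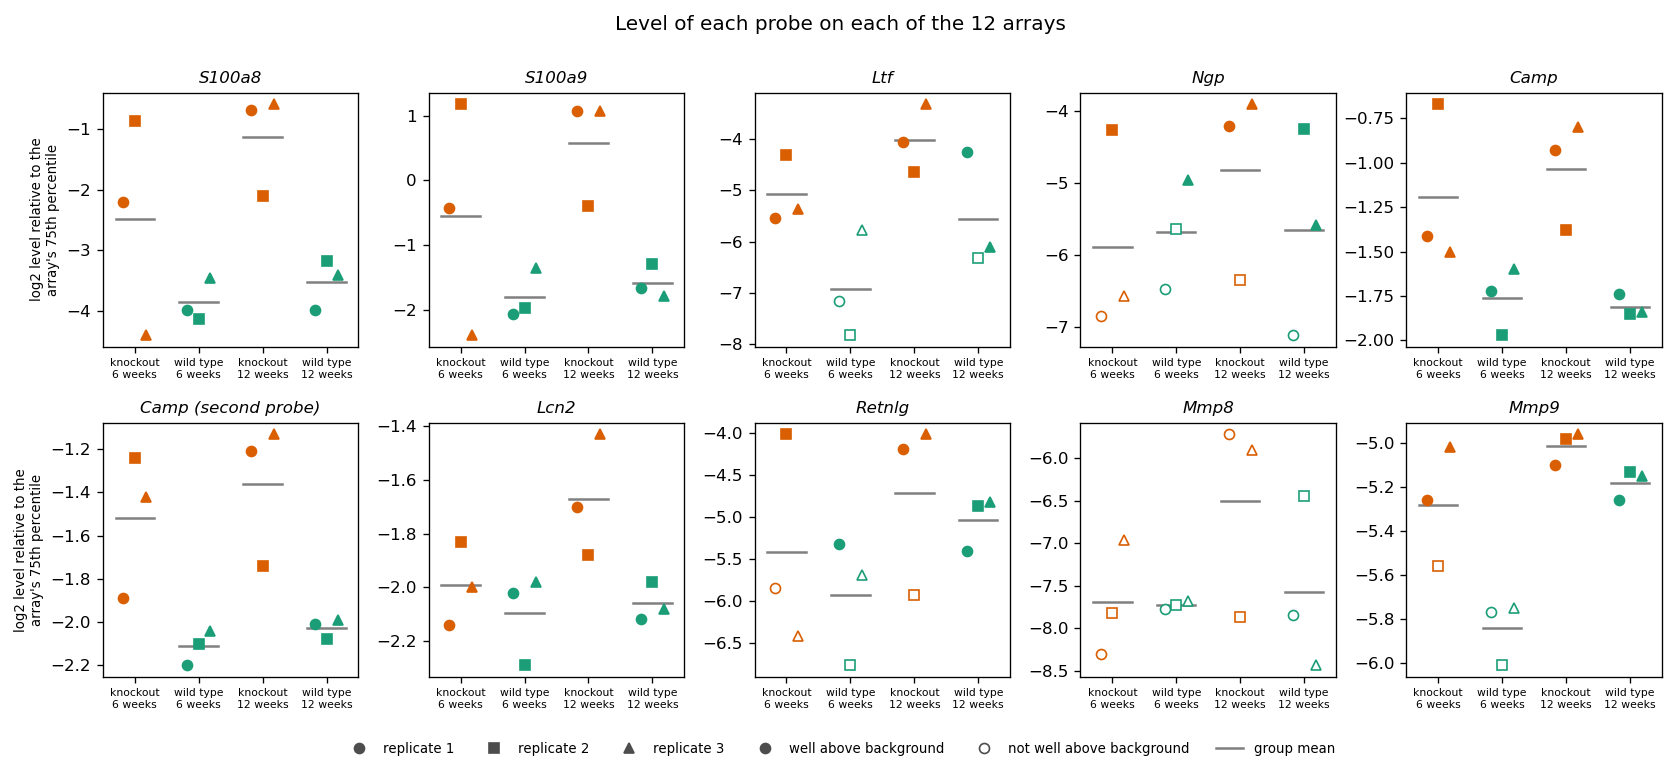
Level of each of the 10 probes on each array (log2 relative to the array's 75th percentile), with knockout left of wild type at each age. Marker shape gives the replicate, open markers are arrays where the probe was not above background, and grey bars are group means. In S100a8 and S100a9 the 6-week knockouts run from the lowest array of all 12 to near the top or the top.

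S100a8 and S100a9, the calprotectin subunits, were above background on all 12 arrays. S100a8 had levels of -2.20, -0.86 and -4.40 in 6-week knockout replicates 1 to 3, against -3.99, -4.13 and -3.45 in 6-week wild type. At 12 weeks the levels were -0.67, -2.10 and -0.58 in knockout, against -3.98, -3.18 and -3.40 in wild type. The 6-week knockouts thus held both a high array, replicate 2, and the lowest of all 12, replicate 3, and overlapped wild type, whereas the 3 knockout arrays at 12 weeks were all above the 3 wild-type arrays. In signal, 6-week knockout replicate 2 read 548 intensity units and replicate 3 read 42.2, against 60.7 to 93.3 in wild type. The 12-week knockouts read 577, 240 and 622, against 67.3, 130.0 and 108.0 in wild type. The difference, knockout minus wild type, was 1.37 ± 0.74 at 6 weeks (SE, n = 3 each; limma adjusted p = 0.340) and did not pass the threshold of 0.05, and at 12 weeks it was 2.40 ± 0.74.

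S100a9 behaved array by array as S100a8 did. Its levels were -0.43, 1.18 and -2.39 in 6-week knockouts, against -2.07, -1.98 and -1.36 in 6-week wild type. In 12-week knockouts they were 1.07, -0.40 and 1.08, against -1.67, -1.30 and -1.78 in 12-week wild type. Replicate 2 of the 6-week knockouts was the highest of the 12 arrays and replicate 3 the lowest, and the 12-week groups did not overlap. Both subunits had the same 5 knockout arrays on top (12-week replicates 1, 2 and 3 and 6-week replicates 1 and 2). The difference was 1.26 ± 0.73 at 6 weeks (limma adjusted p = 0.369) and 2.17 ± 0.73 at 12 weeks. The SD within the 6-week knockouts was 1.79 for each subunit, against 0.36 for S100a8 and 0.39 for S100a9 in 6-week wild type.

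Ltf encodes lactoferrin, the iron-binding protein of specific granules. Its levels were -5.53, -4.30 and -5.37 in 6-week knockouts, all above background, against -7.17, -7.83 and -5.78 in 6-week wild type, none above background. At 12 weeks they were -4.06, -4.64 and -3.31 in knockout, against -4.25, -6.33 and -6.10 in wild type, where replicate 2 was not above background. The groups did not overlap at 6 weeks, and at 12 weeks wild-type replicate 1 lay among the knockouts. Because no 6-week wild-type array was above background, only a bound can be given: Ltf was at least 1.49-fold higher in 6-week knockouts, with measured means of -5.07 in knockout and -6.93 in wild type (limma adjusted p = 0.181). The measured difference, 1.86 on the log2 scale, was 0.62 with normexp background correction and 3.83 with slide column as a block. Bounds here set the brighter group's mean against the mean, over the dim arrays, of the higher of the lowest signal above background on that array and the probe's own signal. The 12-week difference was 1.55 ± 0.65.

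Camp encodes cathelicidin, the precursor of an antimicrobial peptide of specific granules, and was above background on all 12 arrays with both probes. The tested probe had -1.41, -0.67 and -1.50 in 6-week knockouts, against -1.72, -1.97 and -1.60 in 6-week wild type. In 12-week knockouts it had -0.93, -1.38 and -0.80, against -1.74, -1.85 and -1.84 in 12-week wild type. Every knockout array lay above every wild-type array of its age, with 6-week replicate 2 the highest of the 12. The difference was 0.57 ± 0.22 at 6 weeks (limma adjusted p = 0.206) and 0.77 ± 0.22 at 12 weeks. The other probe had -1.89, -1.24 and -1.42 in 6-week knockouts, against -2.20, -2.10 and -2.04 in 6-week wild type, and -1.21, -1.74 and -1.13 in 12-week knockouts, against -2.01, -2.08 and -1.99 in 12-week wild type. Its differences of 0.60 and 0.67 also came from arrays that did not overlap. The probes share most of their bases and are not separate measurements of the gene. They differed over 6-week knockout replicate 3, the lowest of its group on the tested probe and the middle of it on the other.

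Lcn2 encodes lipocalin-2, which binds bacterial siderophores, and varied little. Its levels were -2.14, -1.83 and -2.00 in 6-week knockouts, against -2.02, -2.29 and -1.98 in 6-week wild type, and these groups overlapped. In 12-week knockouts they were -1.70, -1.88 and -1.43, against -2.12, -1.98 and -2.08 in 12-week wild type, with no overlap. The difference was 0.11 ± 0.13 at 6 weeks (limma adjusted p = 0.660) and 0.39 ± 0.13 at 12 weeks. Replicates 1 and 3 of the 12-week knockouts and replicate 2 of the 6-week knockouts were again the 3 highest arrays.

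Ngp encodes neutrophilic granule protein, a cystatin-related protein of mouse marrow, and Retnlg encodes resistin-like gamma, made in mouse myeloid cells. Ngp was above background on 6 of 12 arrays and on all 3 of no group, so it was not tested. Its levels were -6.85, -4.26 and -6.57 in 6-week knockouts, against -6.47, -5.63 and -4.95 in 6-week wild type, and -4.21, -6.35 and -3.90 in 12-week knockouts, against -7.11, -4.25 and -5.58 in 12-week wild type. In every knockout group the high arrays were the ones that were high for S100a8, but wild-type 12-week replicate 2 was as high as they were. Retnlg was above background on 7 arrays, with -5.84, -4.02 and -6.41 in 6-week knockouts, against -5.32, -6.76 and -5.69 in 6-week wild type. At 12 weeks it had -4.19, -5.93 and -4.02 in knockout, against -5.40, -4.87 and -4.83 in wild type. It was above background on 1 of 3 arrays in each 6-week group, on 2 of 3 in 12-week knockouts and on 3 of 3 in 12-week wild type, the only group through which it passed the filter. Its groups overlapped at both ages, and the measured differences, 0.50 ± 0.66 at 6 weeks (limma adjusted p = 0.703) and 0.32 ± 0.66 at 12 weeks, rest in part on readings that were not above background and give no reliable size.

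The metalloproteinases were dim. Mmp8, the neutrophil collagenase, was above background on 0 of 12 arrays and was not tested, with readings of 3.3 to 17.4 intensity units. Mmp9, gelatinase B, is printed 10 times on the array and was above background on 8 of 12 arrays. Its levels were -5.26, -5.56 and -5.02 in 6-week knockouts, against -5.77, -6.01 and -5.75 in 6-week wild type, where none was above background. In 12-week knockouts they were -5.10, -4.98 and -4.96, against -5.26, -5.13 and -5.15 in 12-week wild type. Knockout lay above wild type on every array at both ages, and 6-week knockout replicate 2, the array on which Camp and S100a9 were highest, was the lowest of its group and not above background. Mmp9 was at least 1.28-fold higher in 6-week knockouts, with 2 of 3 arrays above background and measured means of -5.28 in knockout and -5.85 in wild type (limma adjusted p = 0.0703). That bound holds for the processed signal: with normexp background correction the 6-week difference was 0.19 (adjusted p = 0.237), which is below it. The 12-week difference was 0.17 ± 0.13.

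Of the 9 members, 7 passed the filter on dim probes. At 6 weeks limma called 0 of the 7, where 0.925% of 26495 genes tested were called, and 3 (Ltf, Camp and Mmp9) had an unadjusted p under 0.05. The 3 knockout arrays were all above the 3 wild-type arrays in 3 of the 7 (Ltf, Camp and Mmp9), against 15.3% of all genes tested. The median difference of the 7 was 0.57, against 0.04 over all genes tested. At 12 weeks 4 of the 7 (S100a8, S100a9, Camp and Lcn2) were past the call threshold, beside 32.9% of all genes tested, and 0 of the 7 with slide as a block, beside 0.113%, and 5 of the 7 (these and Mmp9) did not overlap, beside 29.2%. Nothing is read from the 12-week counts, because that contrast was in view when the members were chosen. Ltf passed the filter only through the knockout groups, where it was high, so its place among the 7 is not independent of its difference.

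With age in wild type, 12 against 6 weeks, limma called 0 of the 7 members, beside 0.642% of all genes tested, and 1, Mmp9, had an unadjusted p under 0.05. Mmp9 was at least 1.38-fold higher in 12-week wild type, with no overlap of the arrays, where 12.7% of all genes tested were all higher. That bound too holds for the processed signal: with normexp background correction the difference was 0.11 (limma adjusted p = 0.591), which is below it. For Ltf, above background on 2 of 3 arrays in 12-week wild type, the bound on group means was 1.06-fold higher there. It rests on replicate 1, at -4.25. Replicates 2 and 3, at -6.33 and -6.10, lay below 6-week replicate 3, at -5.78. The arrays overlapped, and Ltf was not called (limma adjusted p = 0.368). The calprotectin subunits differed by 0.34 ± 0.74 (S100a8) and 0.22 ± 0.73 (S100a9). With age in knockout 0 of the 7 were called, beside 1.89%, with 1 (Lcn2) at an unadjusted p under 0.05, and none was free of overlap, beside 11.8%. S100a8 differed by 1.37 ± 0.74 and S100a9 by 1.13 ± 0.73 there, which became 0.42 and 0.21 without 6-week knockout replicate 3 and 2.18 and 1.99 without 6-week knockout replicate 2. The 12-week minus the 6-week knockout effect was called in 0 of the 7, beside 0.185%, with 1 (Mmp9) at an unadjusted p under 0.05. Both shares of genes called moved with 6-week knockout replicate 3, and without it they were 28.0% for age in knockout and 17.8% for the difference of effects. These comparisons share arrays with the 12-week contrast and are given as a description.

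**Figure D2:**
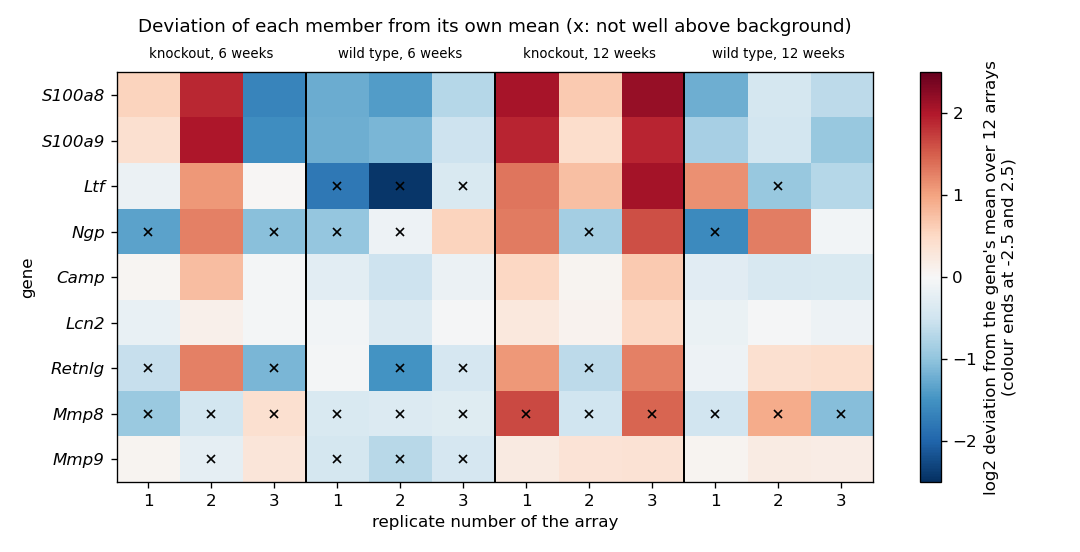
Deviation of each member from its own mean over the 12 arrays (colour, log2), with arrays in columns by group and replicate. A cross marks an array where the probe was not above background. The darkest columns are 6-week knockout replicate 2 and 12-week knockout replicates 1 and 3, and Mmp9 does not share that pattern.

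The same few arrays were high across most members. Mmp8 is left out of the ranks that follow, because it was above background on no array. Of the other 8 members, replicate 3 of the 12-week knockouts was among the 3 highest arrays in 8 and the highest in 6, and replicate 1 was among the 3 highest in 7. Replicate 2 of the 6-week knockouts was among the 3 highest in 5, while 12-week knockout replicate 2 and 6-week knockout replicate 3 were there in 1 each. These 3 arrays, 6-week knockout replicate 2 and 12-week knockout replicates 1 and 3, were the top 3 in 5 of 9 members: S100a8, S100a9, Camp, Lcn2 and Retnlg. The order was seen in the members before it was counted elsewhere, and 84 of 26495 genes tested, 0.317%, had it. Averaged over the 7 tested members, the deviation from a member's own mean was 1.28 and 1.06 on 12-week knockout replicates 3 and 1 and 0.24 on replicate 2, and 0.99 on 6-week knockout replicate 2, 0.03 on replicate 1 and -0.59 on replicate 3. The lowest average, -1.14, was on 6-week wild-type replicate 2, which was the lowest array in 5 members, though above background in 2 of those 5 and not in Ltf, Retnlg and Mmp9. The high arrays lay on both slides, with 6-week knockout replicate 2 on slide 1 and 12-week knockout replicates 1 and 3 on slide 2.

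**Figure D3:**
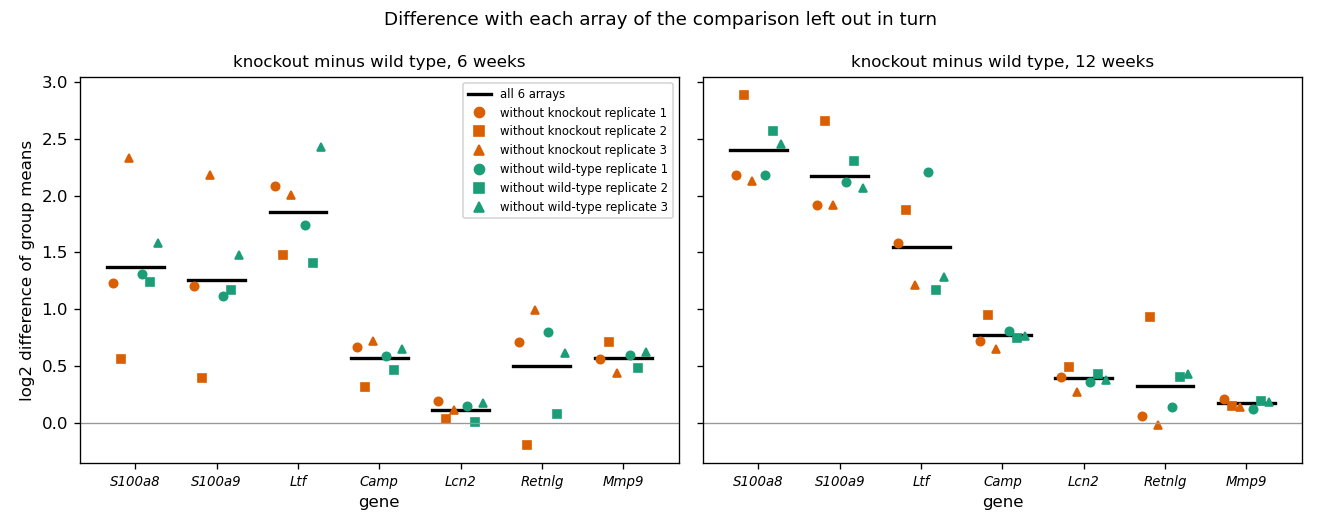
Difference, knockout minus wild type, of the 7 tested members at 6 weeks (left) and 12 weeks (right), on the log2 scale. The black bar is the difference over all 6 arrays and each marker leaves out 1 array. For S100a8 the markers at 6 weeks run from 0.56 to 2.33 and at 12 weeks from 2.13 to 2.89. For Ltf and Mmp9 at 6 weeks no wild-type array was above background, so the plotted sizes are of measured readings and are not reliable.

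Leaving out each array in turn showed how far single arrays carry these differences. At 6 weeks the S100a8 difference was 0.56 without knockout replicate 2 and 2.33 without knockout replicate 3, and that of S100a9 was 0.39 and 2.18. Camp gave 0.31 without knockout replicate 2, and Retnlg -0.20, a change of sign. The 6-week differences of S100a8, S100a9, Camp, Lcn2 and Retnlg thus moved by over 1.5 times without a single array, and those of the calprotectin subunits moved either way, depending on which. For Ltf and Mmp9, with no 6-week wild-type array above background, the measured readings gave 1.41 to 2.43 and 0.44 to 0.71, which say nothing firm of the size beyond the bounds above. Mmp9 had a limma adjusted p of 0.0268 without knockout replicate 2. Lcn2 lay between 0.01, without wild-type replicate 2, and 0.19, without knockout replicate 1. Without knockout replicate 2 Lcn2 gave 0.03, and without wild-type replicate 3 it gave 0.17. Retnlg, much of it read below background, gave 0.99 without knockout replicate 3, 0.80 without wild-type replicate 1 and 0.08 without wild-type replicate 2.

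At 12 weeks the sizes of 4 members held more evenly, between 2.13 and 2.89 for S100a8, 1.92 and 2.66 for S100a9, 0.65 and 0.95 for Camp and 0.27 and 0.49 for Lcn2. Ltf ran from 1.17, without wild-type replicate 2, to 2.21, without wild-type replicate 1. Mmp9 ran from 0.12, without wild-type replicate 1, to 0.21, without knockout replicate 1. Retnlg ran from -0.02, without knockout replicate 3, to 0.93, without knockout replicate 2, was 0.06 once knockout replicate 1 was left out, and was 0.14 once wild-type replicate 1 was left out.

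Slide moved the 12-week values of S100a8, S100a9, Camp and Retnlg further than any left-out array did. Within slide 1, where 6-week knockout replicates 1 and 2 stand against the 3 wild-type arrays, S100a8 differed by 2.33 (limma adjusted p = 0.105) and S100a9 by 2.18 (adjusted p = 0.133). Slide as a fixed block gave the same 6-week sizes, and so did leaving out knockout replicate 3, the only 6-week array on slide 2. These are not separate checks. With slide as a fixed block, which rests on the 6-week knockouts alone for the slide effect, the 12-week differences were 5.27 for S100a8, 4.94 for S100a9, 1.24 for Camp, 0.40 for Lcn2 and 1.81 for Retnlg. Mmp9 changed sign, to -0.22. The slide 2 array that sets the size of this correction is 6-week knockout replicate 3, the array lowest in S100a8 and S100a9.

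Other granule protein genes were read from a list that, like those below, was written with earlier results of these data known. Of 23 names on the array 16 were tested, and at 6 weeks 2 rose and 0 fell in knockout. Ctsg, the primary granule protease cathepsin G, had -4.37, -4.16 and -3.98 in 6-week knockouts, against -4.82, -4.94 and -5.01 in 6-week wild type, a rise of 0.75 ± 0.12 (limma adjusted p = 0.0222). Pglyrp1, a peptidoglycan-binding protein, had -0.85, -0.91 and -0.58 in knockout, against -1.70, -1.60 and -1.24 in wild type, a rise of 0.73 ± 0.13 (adjusted p = 0.0332). Neither gene singled out 6-week knockout replicate 2, and the groups did not overlap. Both calls ended with slide as a block (0.66, adjusted p = 0.0602 for Ctsg and 0.63, adjusted p = 0.0802 for Pglyrp1). At 6 weeks that fit amounts to leaving out knockout replicate 3. They also ended without several other single arrays, 6-week wild-type replicates 1 and 2 among them (highest adjusted p = 0.0821 and 0.110). Of the 15 alternatives, slide as a block included, 7 ended the call of Ctsg (highest adjusted p = 0.285) and 6 that of Pglyrp1 (highest adjusted p = 0.484). Slide column as a block is in both counts, though column coincides with genotype at 6 weeks. At 12 weeks, where 32.9% of all genes tested were called, 5 rose and 0 fell, among them Pglyrp1 (1.12 ± 0.13), Fcnb, a lectin (1.12 ± 0.21), the lysozyme gene Lyz2 (0.93 ± 0.16) and Ctsg (0.57 ± 0.12). Fcnb was above background on 3 of 3 arrays in 12-week knockouts alone and on 2 of 3 in 12-week wild type, so it passed the filter through the group where it was high and its size is uncertain. The list's median difference was 0.23 at 6 weeks and 0.28 at 12 weeks. Of the 37 genes that the naming rule took from all lists at 12 weeks, 0 were called by limma with slide as a block (lowest adjusted p = 0.249, for Ahsp), so none of these 37 calls held in that fit.

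**Figure D4:**
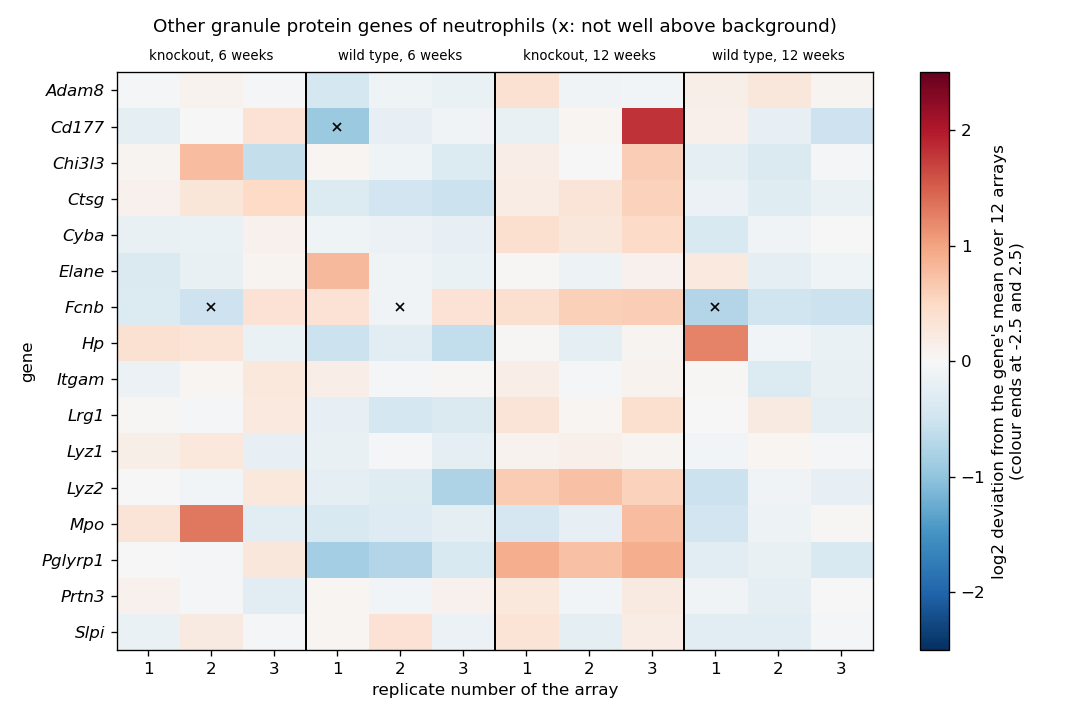
Deviation of each of 16 other granule protein genes from its own mean over the 12 arrays (colour, log2, on the same scale as for the members). Columns are arrays by group and replicate, and a cross marks an array where the probe was not above background. Chi3l3 and Mpo were highest on 6-week knockout replicate 2, and Cd177 on 12-week knockout replicate 3.

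Single arrays stood out in this list too. Mpo, the primary granule enzyme myeloperoxidase, had -4.17, -3.18 and -4.78 in 6-week knockouts, against -4.87, -4.83 and -4.73 in 6-week wild type, and -4.92, -4.69 and -3.72 in 12-week knockouts, against -4.98, -4.62 and -4.47 in 12-week wild type. Its highest arrays were 6-week knockout replicate 2 and 12-week knockout replicate 3. Chi3l3, a chitinase-like protein, was the only gene of the 16 with the members' top 3 arrays, with -2.76 on 6-week knockout replicate 2 and -2.93 and -3.37 on 12-week knockout replicates 3 and 1. Cd177, a neutrophil surface protein, had -5.17, -4.95 and -3.19 in 12-week knockouts, against -4.86, -5.20 and -5.51 in 12-week wild type, with replicate 3 alone high. Of the serine protease genes, Elane was highest, at 1.67, on 6-week wild-type replicate 1. Prtn3 lay between -4.26 and -3.74 on all 12 arrays, with 12-week knockout replicates 1 and 3 the highest (-3.74 and -3.77) and 6-week knockout replicate 2 at -4.03.

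Markers of the neutrophil as a cell were mostly dim. Of 23 names on the array 13 were tested, with 0 called at 6 weeks in either direction, and at 12 weeks 0 rose and 2 fell, BC100530 (-0.67 ± 0.19) and Mrgpra2a (-0.53 ± 0.12). Clec4e, Cxcl2, Slfn4, Stfa1 and Stfa2l1 were above background on no array, and Cxcr2, the chemokine receptor that defines mature neutrophils, on 1, 12-week wild-type replicate 3. Csf3r, the receptor for the granulocyte growth factor, lay between 5.41 and 5.91 on all 12 arrays. The summed level of the list, as linear signal relative to the 75th percentile, was 54.2 to 63.2 in 6-week knockouts, 53.4 to 62.9 in 6-week wild type, 46.3 to 54.2 in 12-week knockouts and 58.1 to 61.9 in 12-week wild type. Csf3r alone made up 92.0% to 95.4% of these sums, so they follow that gene and not the list. Without Csf3r the sum was 3.20 to 3.88 in 6-week knockouts, 2.87 to 3.21 in 6-week wild type, 3.69 to 3.96 in 12-week knockouts and 3.33 to 3.47 in 12-week wild type. At 12 weeks the order of the groups thus turned: knockout was lower on every array with Csf3r counted and higher on every array without it. The sum without Csf3r largely follows its brightest gene, Trem1, and the sum without both genes was not taken. Trem1 had 1.39, 1.38 and 1.54 in 12-week knockouts, against 1.23, 1.26 and 1.23 in 12-week wild type. The median difference of the 13 tested genes was -0.25. The part of these cells in the members' differences was not tested.

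The receptors, partners and inhibitors of the member proteins were called 0 times among 13 at 6 weeks. At 12 weeks 6 rose and 1 fell, with the metalloproteinase inhibitors Timp1 (0.73 ± 0.17) and Timp2 (0.60 ± 0.16, and -0.07 with slide as a block), Bsg, a binding partner of S100A9 (0.44 ± 0.12), and the scavenger receptor Cd36 (-0.57 ± 0.18). Of 7 granulocyte transcription factors tested, 1 rose at 6 weeks, Cebpd, with 2.05, 2.13 and 2.06 in 6-week knockouts, against 1.22, 1.26 and 1.56 in 6-week wild type (0.74 ± 0.11, limma adjusted p = 0.0165). Leaving out any of 3 arrays (knockout replicate 1, wild-type replicate 1 and wild-type replicate 2) took it past 0.05, to an adjusted p of at most 0.0659. So did slide column as a block, a fit within 1 slide and a fit of only the groups compared (highest adjusted p = 0.398). Nothing is read from the loss with slide column, because column coincides with genotype at 6 weeks. At 12 weeks Cebpa rose (0.26 ± 0.09) and Hlx fell (-0.51 ± 0.17). Cebpe, the factor that drives specific granule genes, was above background on 3 arrays and Gfi1 on none. Genes of neutrophil recruitment were called 0 times among 9 at 6 weeks. At 12 weeks Cxcl12 rose (0.46 ± 0.09) and the selectin gene Selp fell (-1.08 ± 0.22). Acute phase and reactive astrocyte genes were called 0 times among 14 at 6 weeks, and at 12 weeks 5 rose and 1 fell, with Hspb1 (0.90 ± 0.17), Serpina3n (0.47 ± 0.15) and Cxcl10 (-1.24 ± 0.32) among them.

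Blood content was read from 13 red cell genes tested of 18 on the array. None was called at 6 weeks, and at 12 weeks 7 rose and 0 fell, with Ahsp, the chaperone of alpha globin (1.87 ± 0.39, with 1 of 3 wild-type arrays above background, so that it passed the filter through the knockout groups alone), Beta-s (1.29 ± 0.26) and Hba-a2 (0.94 ± 0.19). The summed level of the 18 was 196, 230 and 213 in 6-week knockouts, against 157, 201 and 189 in 6-week wild type, and 467, 357 and 289 in 12-week knockouts, against 202, 186 and 251 in 12-week wild type. Hba-a2 made up 53.9% to 61.7% of these sums. Without it the 12-week sum was 116 to 179 in knockout, against 85.1 to 112 in wild type. The red cell sum was thus higher in 12-week knockouts on every array, as S100a8, S100a9, Camp and Lcn2 were, and its part in the members' differences was not tested. Within the 12-week knockouts the order differed, since replicate 3, highest in 6 members, had the lowest red cell sum of that group and replicate 2, lowest of the group in S100a8, S100a9, Ltf, Camp and Lcn2, the middle one. Of the 13, Slc4a1, the anion exchanger of red cells, had the members' top 3 arrays. Of the red cell genes on the array 2 were above background on none.

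Other blood and tissue lists were read in the same way. At 6 weeks none of the genes of platelets (9 tested), monocytes (9), B cells (7), T and NK cells (8), mast cells (3), microglia (12), bone and meninges (14) and brain tissue (10) was called. At 12 weeks 1 platelet gene rose, 3 monocyte genes rose and 2 fell, 1 B cell gene fell, 4 microglia genes rose, 2 bone and meninges genes rose and 1 fell, and 3 brain tissue genes rose, with 0 called in the T and NK cell and mast cell lists. The monocyte sum was 46.1 to 48.2 in 12-week knockouts and 39.3 to 44.7 in 12-week wild type, and 38.3 to 40.1 in 6-week knockouts and 32.3 to 35.9 in 6-week wild type. Without Ms4a4c, its brightest gene, the 12-week groups overlapped, at 25.6 to 26.9 on the knockout arrays, against 21.5 to 26.3 on those of wild type. The 6-week groups without that gene did not overlap, at 21.6 to 22.6 in knockout, against 17.3 to 19.1 in wild type. The bone and meninges sum was 322 to 338 on the 12-week knockouts and 329 on 6-week knockout replicate 3, all slide 2 arrays, and 203 to 236 on the arrays of slide 1. Ptgds, the prostaglandin D synthase gene, made up 90.0% to 94.3% of that sum. Without Ptgds the sum was 19.3 to 22.3 in 12-week knockouts and 19.6 to 22.7 in 12-week wild type, which overlapped, and 19.4 on 6-week knockout replicate 3, against 18.3 and 18.8 on the other two 6-week knockouts. The median difference of the 14 tested genes at 12 weeks was -0.02. The part of these lists in the members' differences was not tested.

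The genes whose levels most resembled the members' mean deviation over the 12 arrays were named by Pearson's r, among 15177 genes compared. Slc4a1 had the highest r at 0.900, followed by Gnb5 (0.889), Akap8l (0.875), Adcy8 (0.871) and Syt12 (0.868). Slc4a1 had -2.98, -2.94 and -3.42 in 6-week knockouts, against -3.26, -3.34 and -3.17 in 6-week wild type, and -2.71, -3.16 and -2.77 in 12-week knockouts, against -3.17, -3.24 and -3.35 in 12-week wild type. Its lowest array was 6-week knockout replicate 3, as in S100a8 and S100a9. When deviations were taken from group means instead, the most similar genes were Mlxip (0.946), Galm (0.938), Ninl (0.928), Tia1 (0.919) and Dmxl1 (0.915). The arrays share scaling, slide and animal, so these values describe likeness only.

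Of the 4 members on chromosome 9, which also holds Il18, none is near it. The probes of Ltf, Ngp and Camp lie 60.6, 59.9 and 59.4 Mb from the Il18 probe on one side and that of Mmp8 42.8 Mb on the other. The remaining members lie on chromosome 3 (S100a8 and S100a9), chromosome 2 (Lcn2 and Mmp9) and chromosome 16 (Retnlg).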

How the data were processed

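Whole-brain RNA of 12 mice was measured on 1-colour Agilent arrays, 3 per group. The submitters' processing notes name Agilent Feature Extraction, version 10.7.3.1, for the scans. The deposited columns used are fluorescence intensity (processed signal, mean signal and local background), per the file headers, and other values of 0 or 1 that mark spots above background, saturated spots and outlier spots, also deposited by the authors. The authors' deposited series table holds intensity too, and differed from the processed signal by at most 0.498%. Probe positions are on mm9.

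Of 62976 spots 59305 are not controls. Outlier spots (107 to 220 per array) were left out, and where a probe had no other spot on an array they were kept (72 probes, no member). No spot was saturated. The processed signal was taken as log2, the array's log2 75th percentile was subtracted, and spots of a probe were averaged. Genes were tested where some group had a probe above background on each of its 3 arrays (for probes of several spots, on over 50% of them), with the brightest probe per gene name, giving 26495 genes. limma 3.58.1 in R 4.3.3 (lmFit, eBayes) fitted 1 mean per group over 12 arrays, with 8 residual degrees of freedom. Tests were two-sided, adjusted by Benjamini-Hochberg over all genes, and called under 0.05. The script was tested on simulated data.

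The members and the 15 gene lists were chosen with earlier results of these data known. Named are the members, Il18, up to 4 called genes per list with the largest change, and the 10 most similar genes by Pearson's r, of which 5 are printed, leaving out accession and clone names. Mpo, Chi3l3, Cd177, Elane, Prtn3, Csf3r, Trem1, Ms4a4c, Cxcr2, Cebpe and Gfi1 were named after their values were seen. The labels call the replicates biological, and same-numbered arrays were not treated as pairs. The number of arrays and the distance of dim probes from background limit the precision. Other settings were 15 alternatives and each of the 12 arrays left out.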

Additional observations from a re-analysis of the deposited data

How the results depend on the processing

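At 6 weeks limma called 0 of the 7 members, beside 0.925% of all genes tested. Median scaling (1.76% of all genes) and array weights (1.71%) gave 1, Mmp9, with an adjusted p of 0.0411 under median scaling. Leaving out knockout replicate 2 (0.978%) also gave Mmp9, so that arrays left out gave 0 to 1. At 12 weeks the count was 4, and it was 1 of 9 with no filter on dim probes, 0 with slide as a fixed or as a random block, 2 with slide column as a block, 1 with the replicate block, 3 with a trended and robust fit, 5 with normexp and with array weights (Ltf added), and 0 to 4 with arrays left out. The share of all genes called at 12 weeks moved too, from 32.9% in the main fit. Without the filter it was 18.6%, with the column blocked 22.3% and with replicates blocked 28.5%. The trended and robust fit gave 35.1%, normexp 33.1% and array weights 48.3%. Blocking on slide left 0.113% (fixed) and 0.192% (random). Changes in the 12-week count are thus not particular to the members. With age in wild type the member count was 0, and 0 to 1 with arrays left out. It was 1 with slide as a fixed block (1.48% of all genes called), slide as a random block (1.03%) or array weights (2.57%). With age in knockout it was 0, and 2 with array weights (37.3% of all genes called) and 0 to 1 with arrays left out (0.0226% to 28.0%). The difference between ages gave 0 in every setting run. Same-numbered arrays had correlations of -0.20 to 0.10, and 2 of 12 arrays correlated best with their own number, so the numbers pair nothing. The replicate block gave 0 members called in the comparisons other than 12 weeks.

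Some single values changed sign, each from a value that was not called. At 6 weeks Retnlg gave -0.05 with slide column as a block and -0.20 to 0.99 with arrays left out, the low end without knockout replicate 2. At 12 weeks Retnlg gave -0.02 to 0.93 with arrays left out, the low end without knockout replicate 3, and Mmp9 -0.22 and -0.001 with slide as a fixed and as a random block. With age in wild type S100a8 gave -0.12, Camp 0.02 and Lcn2 -0.02 with slide column as a block. In that comparison Camp gave 0.004 and Lcn2 -0.02 with normexp background correction, and Camp 0.02 with the mean of its probes. With arrays left out Camp ran from -0.15 to 0.03 there and Lcn2 from -0.06 to 0.10. Other sizes moved by over 1.5 times. At 6 weeks normexp gave 0.62 for Ltf, 0.19 for Mmp9, 0.05 for Lcn2 and 0.11 for Retnlg, and slide column as a block gave 0.69 for S100a8, 3.83 for Ltf and 0.02 for Lcn2. Slide as a fixed block gave 2.33 for S100a8, 2.18 for S100a9 and 0.99 for Retnlg, the values without knockout replicate 3. Quantile normalization gave 0.21 for Lcn2, median scaling 0.21 for Lcn2, and array weights 2.06 for S100a8 and 0.91 for Retnlg. At 12 weeks normexp gave 0.85 for Ltf, slide as a random block 3.63 for S100a8, 3.35 for S100a9 and 0.96 for Retnlg, and quantile normalization 0.36 for Mmp9 and 0.52 for Retnlg. Slide column as a block gave 0.14 for Retnlg, the value without wild-type replicate 1. Median scaling gave 0.29 for Mmp9, and array weights 0.51 for Retnlg and 0.11 for Mmp9. The causes were not tested. The column effect behind the slide column values at 6 weeks and with age in wild type comes from the 12-week wild-type arrays alone. Under median scaling the change of the median gene is 0.13 at 6 weeks and 0.14 at 12 weeks, and the split of rises and falls at 6 weeks was 145 and 100, against 385 and 82 with median scaling and 329 and 139 with quantile normalization. With an array left out the share of all genes called was 0.291% to 0.978% at 6 weeks, 19.5% to 39.4% at 12 weeks, 0.113% to 1.48% with age in wild type, 0.0226% to 28.0% with age in knockout and 0.0377% to 17.8% for the difference between ages. A fit within 1 slide gives no value at 12 weeks or for the difference between ages. Depth in arrays is signal over background, which limits Ltf, Ngp, Retnlg, Mmp8 and Mmp9.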
